A study of Mus musculus with 8 samples.

Results

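The iron genes examined here encode the proteins that store iron (Fth1 and Ftl1, the heavy and light chains of ferritin), release it from the cell (Slc40a1, ferroportin), take it up (Tfrc, the transferrin receptor; Slc11a2, the divalent metal transporter DMT1; Slc39a14, the metal transporter ZIP14) and sense it (Aco1 and Ireb2, the iron regulatory proteins IRP1 and IRP2). RNA levels came from 4 WT and 4 Cebpg-/- cultures of mouse embryonic fibroblasts (MEFs), cells of connective tissue taken from embryos at E13.5. The Cebpg-/- cells lack both copies of Cebpg, the gene of the bZIP transcription factor C/EBPγ. Both genotypes are on the C57BL/6 strain, grew in medium with 10% fetal bovine serum and antibiotics, and were collected 48 hours after plating at passage 3. The labels name the samples biological replicates without saying whether each came from its own embryo, so the errors below measure the spread between these samples.

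The 8 genes were chosen by function, with the WT and Cebpg-/- values of these same arrays already known. Each difference between the genotypes is therefore given as a description with its error, and whether it passed the threshold is stated without a p-value of its own. Of 45101 probe sets in the table, 22 name 1 of these genes alone. Of the 22, 3 are control probe sets for Tfrc, and the other 19, among 45037 without controls, cover 7 of the 8 genes: Slc11a2 and Slc39a14 have 4 each, Tfrc and Aco1 3 each, Fth1 and Slc40a1 2 each, and Ireb2 1. Ftl1 has no probe set of its own, since those that name it also name the gene Ftl1-ps2. Every value below is log2 RMA expression, so that a difference of 1 is a doubling. The median of all values was 2.73, and a probe set near or under it lies at the dim end of the scale, where RMA compresses differences.

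Iron enters most cells bound to transferrin, which Tfrc carries into endosomes, and Slc11a2 then moves the freed iron into the cytosol. Iron that is not used is oxidised by the heavy ferritin chain and stored inside the ferritin shell, and ferroportin is the known exporter of iron from mammalian cells. When iron is scarce, the iron regulatory proteins bind hairpins called iron-responsive elements: binding near the start of ferritin and ferroportin mRNA blocks translation, and binding in the tail of Tfrc mRNA protects it from decay. Much of this control acts on translation, which an array of RNA levels does not read. At the level of transcription, ferritin and ferroportin are known targets of the oxidant-responsive factor NRF2, and Tfrc of the hypoxia-inducible factors.

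Promoters of Fth1, Ftl1 and Tfrc are shown because the brightest probe set that names each of them was higher in Cebpg-/-. They were read from RefSeq on GRCm38.p6, with 1 start shown per gene. The promoter table held 7 transcription starts for 5 of the 8 genes (2 for Fth1, 2 for Tfrc and 1 each for Ftl1, Ireb2 and Aco1). Each run below is the 120 bases just before a start, 5′ to 3′ on the gene's strand, with the core of the hypoxia response element in capitals (GCGTG, or CACGC where it lies on the opposite strand). They lie at chr19:9982526-9982645 (plus strand) for Fth1, chr7:45459887-45460006 (minus strand) for Ftl1 and chr16:32608776-32608895 (plus strand) for Tfrc.
Fth1: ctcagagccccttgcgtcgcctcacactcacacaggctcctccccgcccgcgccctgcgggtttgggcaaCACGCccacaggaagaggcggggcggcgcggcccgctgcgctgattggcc
Ftl1: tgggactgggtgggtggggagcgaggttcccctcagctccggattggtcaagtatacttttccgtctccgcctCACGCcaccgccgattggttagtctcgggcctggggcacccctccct
Tfrc: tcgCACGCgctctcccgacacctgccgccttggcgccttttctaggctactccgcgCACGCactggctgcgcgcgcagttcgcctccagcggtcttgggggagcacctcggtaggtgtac

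Over the full 250 bases before a start, searched on both strands, ACGTG or GCGTG was found before 4 of the 7 starts, at 64 and 117 bases before the Tfrc start shown, 50 before that of Fth1 and 47 before that of Ftl1. The fourth is another Tfrc start further downstream, with matches at 42, 134 and 228 bases before it. The other Fth1 start, whose nearest 120 bases lie at chr19:9980480-9980599, is not shown and had no match. Those of Ireb2 and Aco1 had none either. The same letters stand in 38.6% of all 32851 promoters of that length. The antioxidant response element, TGACNNNGC, was in none of the 7 and in 10.2% of all promoters, and the composite element of C/EBP and ATF factors, TGATGNAA, was in none of the 7 and in 3.45% of all. The loop letters of the iron-responsive element, CAGTGN, were in none of the first 50 transcribed bases after the 7 starts and in 7.08% of all. A match is only a match of letters, and known elements of these genes can lie outside these windows.

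Before the iron genes, the cultures were checked for their targeted gene and for other cells. One of 3 Cebpg probe sets fell (difference -0.78; limma with Benjamini-Hochberg adjustment over all probe sets, adjusted p = 0.000593), and the other 2 did not pass (-0.17, adjusted p = 0.275, and 0.26, adjusted p = 0.0942). The sources used here do not say which of the 3 lies in the deleted part of the gene, so what the other 2 show about the genotype cannot be told. All 10 fibroblast markers lay above the median of all values in both genotypes. Of these, 4 (Col1a1, Col1a2, Col3a1 and Pdgfrb) were called lower in Cebpg-/- and none higher, where 3.99% of all genes were called lower. Erythroid markers, of interest because red cell precursors are rich in iron genes, had means of 2.06 to 2.29 on the 8 arrays, and none of 8 was called. Of 6 skeletal muscle markers 2 (Actc1 and Tnnt2) were called lower, of 6 epithelial markers 1 (Epcam), and of 6 endothelial markers none. None of these was called higher. Leukocyte markers differed between arrays: the mean of 20 markers, among them Csf1r, Lyz2 and Tyrobp, was 3.41, 5.04, 4.93 and 5.08 on WT replicates 1 to 4 and 6.98, 4.55, 6.32 and 5.98 on Cebpg-/- replicates 1 to 4. Of the 20, 16 lay above the median of all values in WT and 19 in Cebpg-/-, Cd163 was at the dim end in both (1.05 and 1.05), and 1 (Cd14) was called higher. Cebpg-/- replicate 2 thus had a lower leukocyte mean than WT replicates 2 to 4, and the other Cebpg-/- arrays a higher one than all WT arrays. Macrophages are rich in ferritin and ferroportin, so differences are also given from a fit that holds this mean as a term (the leukocyte term). In a bulk sample, more cells of a type and more RNA per cell cannot be told apart.

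Of the 19 probe sets 4 passed as higher in Cebpg-/-, namely both of Fth1 and the brightest of Slc40a1 and Tfrc, and none passed as lower (limma with Benjamini-Hochberg adjustment over 45037 probe sets, threshold 0.05). By an unadjusted p under 0.05 the counts were 6 and 3. Over all probe sets 4.82% passed as higher and 2.78% as lower. Since these genes were put together with this comparison in view, nothing is read from their share. The 4 Cebpg-/- values lay above all 4 WT values in 4 of the 19 (8.71% of all probe sets) and below them in 2 (6.31% of all). The median difference was 0.05 over the 19 and -0.02 over all probe sets. Of all calls 63.4% were higher in Cebpg-/-, a share that was 53.4% after quantile normalization and 75.5% with the array medians subtracted.

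**Figure D1:**
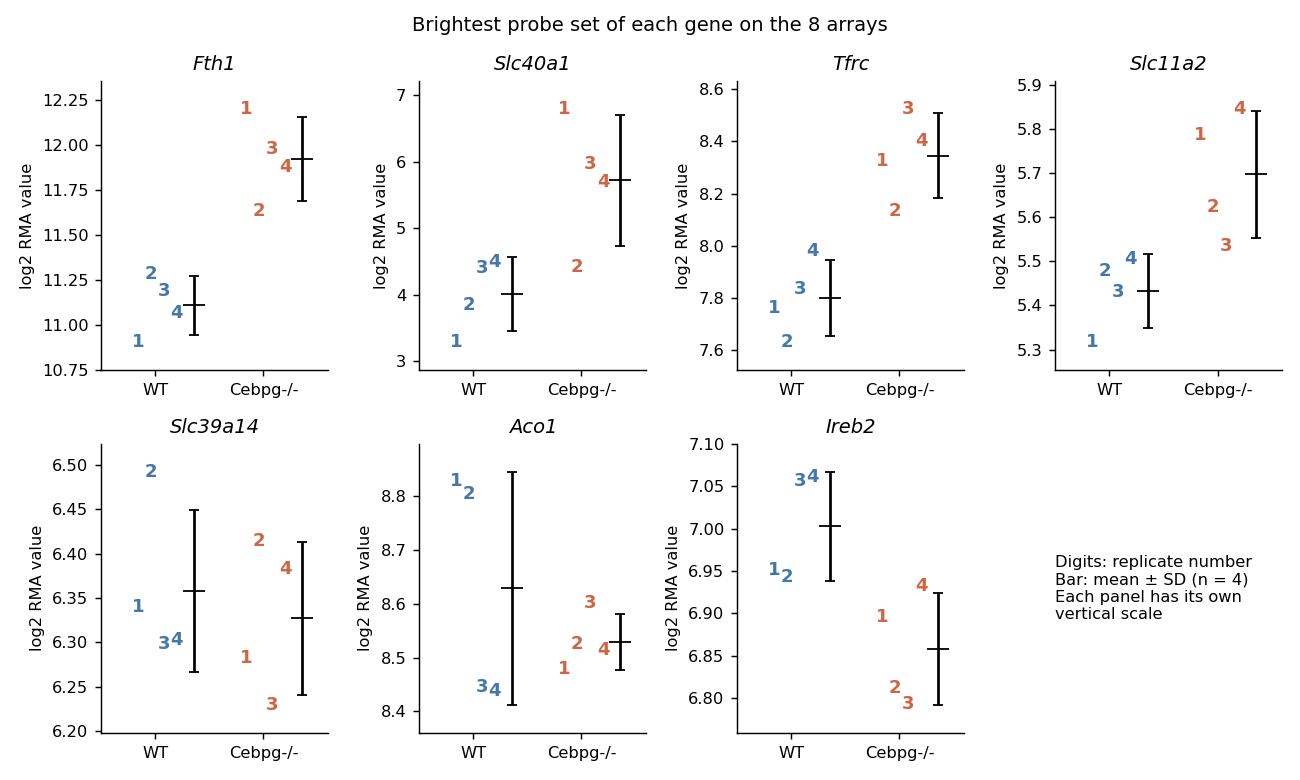
Log2 RMA values (vertical axis, its own scale in each panel) of the brightest probe set of each of the 7 genes that have one, in WT and Cebpg-/- (horizontal axis). Digits are replicate numbers and the black bars are the mean ± SD (n = 4); Fth1, Tfrc and Slc11a2 lie higher and Ireb2 lower in Cebpg-/- without overlap, and Slc40a1 (4.42 to 6.79 in Cebpg-/-), Slc39a14 and Aco1 overlap.

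The storage gene Fth1 was higher in every Cebpg-/- culture. Its brightest probe set (1427021_s_at) read 10.90, 11.28, 11.19 and 11.06 on WT replicates 1 to 4 and 12.20, 11.63, 11.98 and 11.88 on Cebpg-/- replicates 1 to 4. All Cebpg-/- values lay above all WT values, with replicate 1 the highest and replicate 2 the lowest of the 4. The means were 11.11 ± 0.16 and 11.92 ± 0.24 (SD, n = 4), a difference of 0.81 ± 0.12 (SE; 95% interval 0.54 to 1.08) or 1.76-fold. A second probe set of Fth1 (1448771_a_at) read 10.72, 10.98, 10.87 and 10.92 in WT and 11.92, 11.33, 11.73 and 11.68 in Cebpg-/-, again without overlap and with the same order of the Cebpg-/- arrays. Its difference was 0.79 ± 0.12 (SE; 95% interval 0.53 to 1.05), 1.73-fold, so both probe sets gave about the same size. Both passed with all arrays and in each of 16 other fits, with differences of 0.54 to 0.91 and 0.52 to 0.90.

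Within Cebpg-/-, the order of the arrays in both Fth1 probe sets was that of the leukocyte marker mean, lowest in replicate 2, then 4, 3 and 1. In WT the orders were not the same, although replicate 1 was lowest in both. How many of all probe sets share the Cebpg-/- order was not counted, here or for the genes below. With the leukocyte mean as a term in the fit, the Fth1 differences were 0.54 ± 0.09 and 0.52 ± 0.08 (SE), and both still passed the threshold. Cebpg-/- replicate 2, with a leukocyte mean of 4.55, read 11.63 in the brightest set, where the highest WT value was 11.28.

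The light chain gene Ftl1 can be seen only together with Ftl1-ps2, a near-identical copy, so the values below belong to the pair. A probe set that names both (1418364_a_at) read 11.71, 11.67, 11.60 and 11.71 in WT and 12.18, 11.94, 12.10 and 11.99 in Cebpg-/-. The groups did not overlap, and the Cebpg-/- arrays stood in the order of the leukocyte marker mean, as for Fth1. The WT arrays did not: replicate 1, lowest in that mean at 3.41, read 11.71, at the top of the WT range. The difference of this probe set was 0.38 ± 0.07 (SE; 95% interval 0.23 to 0.53), 1.30-fold. A second such set (1422302_s_at) had a difference of 0.28 ± 0.07, also without overlap, and both passed the threshold. The other set, which also names 3 microRNA genes, read 7.08 ± 0.11 and 7.33 ± 0.13 (SD, n = 4) with overlapping groups and did not pass. All 3 sets had the order of the leukocyte marker mean in Cebpg-/-, and none of them had it in WT. With the leukocyte term the differences were 0.32, 0.22 and 0.21, and none passed. These 3 sets are outside the 19.

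The exporter gene Slc40a1 had the largest mean difference and the widest spread. Its brightest probe set (1417061_at) read 3.28, 3.85, 4.41 and 4.49 on the 4 WT arrays and 6.79, 4.42, 5.97 and 5.70 on the Cebpg-/- arrays. Replicates 1, 3 and 4 of Cebpg-/- lay above all WT values, while replicate 2 lay below WT replicate 4, so the groups overlapped. The means were 4.01 ± 0.56 and 5.72 ± 0.99 (SD, n = 4), a difference of 1.71 ± 0.44 (SE; 95% interval 0.73 to 2.69) or 3.27-fold. A dimmer probe set (1448566_at) read 2.13 to 2.30 in WT, under the median of all values, and 4.59, 2.17, 3.45 and 3.05 in Cebpg-/-. Here too replicate 2 sat among the WT values, and the difference of 1.10 ± 0.39 did not pass; without replicate 2 it was 1.49 and passed.

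The Slc40a1 call was the least stable of the 4. The brightest set passed in 5 of 16 other fits and not in 11. It was lost without WT replicate 1 (1.47), 2 (1.66) or 3 (1.84) and without Cebpg-/- replicate 1 (1.35), 3 (1.63) or 4 (1.72), while without Cebpg-/- replicate 2 the difference was 2.14 and it passed. Among other settings, it was also lost after quantile normalization (1.67) and when the variance was modelled on intensity (1.71). Both Slc40a1 probe sets followed the order of the leukocyte marker mean in Cebpg-/-, replicates 2, 4, 3 and 1 from low to high. In WT neither set followed it, although replicate 1 was lowest in the brightest set and in that mean. With that mean in the fit the difference of the brightest set was 0.61 ± 0.21 (SE) and that of the dimmer set 0.34 ± 0.37, and neither passed. In that fit 1.04% of all probe sets passed in either direction, against 7.60% without the term.

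**Figure D2:**
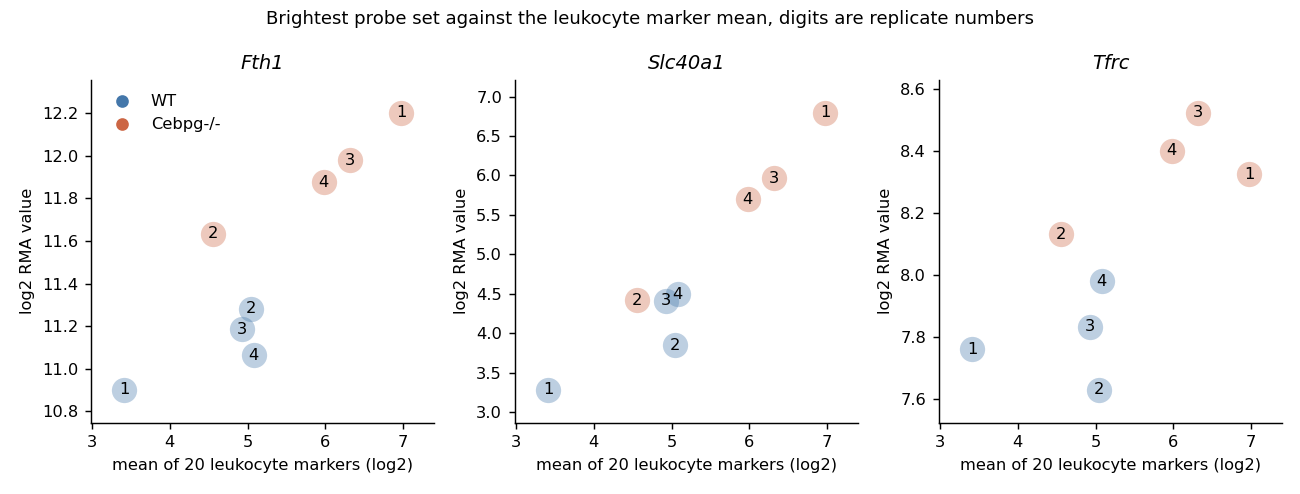
Log2 RMA value of the brightest probe set of Fth1, Slc40a1 and Tfrc (vertical axes, own scales) against the mean of 20 leukocyte markers on the same array (horizontal axis, log2), 1 point per array with its replicate number. Cebpg-/- replicate 2, at a marker mean of 4.55, lies above all WT arrays for Fth1 (11.63) and Tfrc (8.13) and among them for Slc40a1 (4.42).

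The uptake gene Tfrc was higher in every Cebpg-/- culture by its brightest probe set. This set (1452661_at) read 7.76, 7.63, 7.83 and 7.98 on the WT arrays and 8.33, 8.13, 8.52 and 8.40 on the Cebpg-/- arrays. The groups did not overlap, and the highest Cebpg-/- array was replicate 3, not replicate 1 as for Fth1 and Slc40a1. The means were 7.80 ± 0.15 and 8.35 ± 0.16 (SD, n = 4), a difference of 0.54 ± 0.10 (SE; 95% interval 0.33 to 0.76), 1.46-fold. Its call was kept without any 1 array (0.49 to 0.62). It was lost with the leukocyte mean in the fit (0.44 ± 0.12) and without both replicates 1 (0.54), though the size moved little in the latter.

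The other probe sets of Tfrc were dim. They read 3.73 ± 0.16 and 3.87 ± 0.13 (1422966_a_at) and 2.23 ± 0.21 and 2.37 ± 0.14 (1422967_a_at; SD, n = 4), with differences of 0.14 each that did not pass and overlapping groups. The 3 control probe sets for this mRNA, from its 3′ part, middle and 5′ part, averaged 3.00, 1.90 and 1.49 in WT and 3.09, 2.04 and 1.49 in Cebpg-/-, and controls entered no fit. The rise of Tfrc therefore rests on 1 probe set.

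Slc11a2, which moves iron out of endosomes, gave probe sets of opposite sign, and none passed. The brightest (1452078_a_at) read 5.32, 5.48, 5.43 and 5.51 in WT and 5.79, 5.62, 5.53 and 5.85 in Cebpg-/-. These groups touch without overlapping, at 5.51 and 5.53, and the difference was 0.26 ± 0.08 (SE; 95% interval 0.09 to 0.44). The next (1426441_at) differed by 0.21 ± 0.10 in the same direction, and the next after it (1417584_at) by -0.21 ± 0.07 in the other, at 4.09 ± 0.06 in WT and 3.87 ± 0.13 in Cebpg-/- (SD, n = 4). The fourth lay under the median of all values, at 2.15 and 2.12. With the leukocyte term the 4 differences were 0.18, 0.33, -0.15 and 0.05, and none passed. Slc11a2 makes mRNAs with and without an iron-responsive element at their tail, and the sources used here do not say which of them each probe set reads.

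Slc39a14, which takes up iron that is not bound to transferrin, differed little. The brightest of its 4 probe sets (1427035_at) read 6.34, 6.49, 6.30 and 6.30 in WT and 6.28, 6.41, 6.23 and 6.38 in Cebpg-/-, with overlapping groups. The difference was -0.03 with a 95% interval of -0.18 to 0.12. Sets 1425649_at and 1438490_at differed by -0.0019 and -0.18 and did not pass. The dimmest (1457770_at) did not overlap, at 1.63 to 1.88 in WT and 1.42 to 1.58 in Cebpg-/-. Both groups lie at the bottom of the scale, and the difference of -0.25 ± 0.07 did not pass with the settings used throughout, but did when the variance was modelled on intensity, with array weights and without WT replicate 4. With the leukocyte term the 4 differences were 0.01, 0.09, -0.20 and -0.24.

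The sensors showed no difference that passed. Aco1 (IRP1, which as an enzyme is cytosolic aconitase) read 8.83, 8.80, 8.44 and 8.44 in WT and 8.48, 8.52, 8.60 and 8.51 in Cebpg-/- by its brightest probe set (1456728_x_at). WT replicates 1 and 2 stood above all other arrays there, and replicates 3 and 4 below all Cebpg-/- arrays. A second set (1423644_at) did not repeat this split of the WT arrays, at 6.69, 6.75, 6.75 and 6.76, against 6.78, 6.87, 6.73 and 6.79 in Cebpg-/-. The differences were -0.10 (95% interval -0.32 to 0.12) and 0.05 (-0.07 to 0.17), and a dim further set differed by 0.0074. With the leukocyte term they were -0.01, 0.07 and -0.09.

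Ireb2 (IRP2, which is degraded when iron is plentiful) was slightly lower in Cebpg-/- without passing. Its single probe set (1433527_at) read 6.95, 6.94, 7.06 and 7.06 in WT and 6.90, 6.81, 6.79 and 6.93 in Cebpg-/-. The groups did not overlap, with 6.93 the highest Cebpg-/- and 6.94 the lowest WT value. The difference was -0.14 ± 0.06 (SE; 95% interval -0.28 to -0.01), 0.905 of the WT level, and stayed between -0.19 and -0.11 in all 16 other fits, with -0.19 the value with the leukocyte term.

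**Figure D3:**
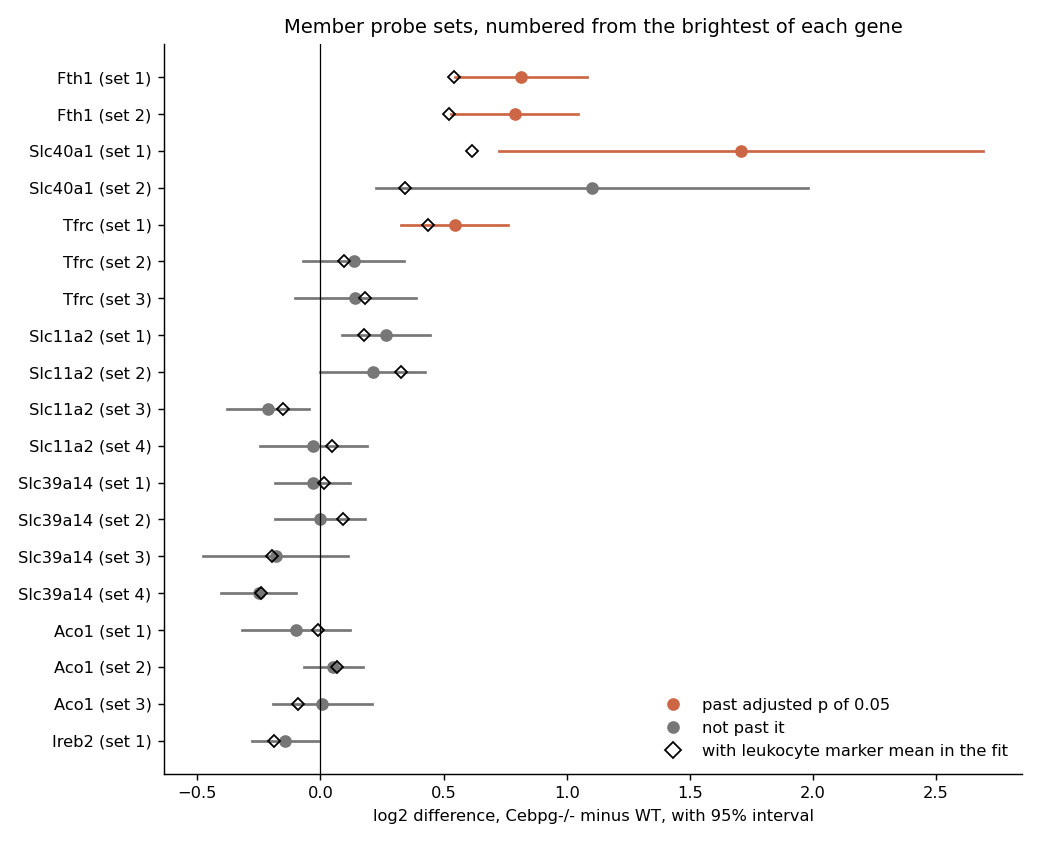
Log2 difference, Cebpg-/- minus WT, of the 19 probe sets (horizontal axis) with its 95% interval as a line, by gene and numbered from the brightest set of each gene. Filled orange points passed an adjusted p of 0.05 and grey ones did not, and open diamonds are the difference with the leukocyte marker mean in the fit; for the brightest Slc40a1 set this is 0.61 in place of 1.71, and for the brightest Fth1 set 0.54 in place of 0.81.

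The genes whose values over the 8 arrays were most like those of a member were named by Pearson r among 11651 genes above the median of all values. The closest to Fth1 were Lmbrd1 (0.997), which encodes a lysosomal protein of cobalamin export, and Tle4 (0.996), a transcriptional corepressor. Slc40a1 was closest to Abl2 (0.993), a tyrosine kinase, and Atp6ap1 (0.992), an accessory subunit of the proton pump. Tfrc was closest to Rab10 (0.998), a small GTPase of vesicle transport, and Eif2d (0.992), a translation factor. For Slc11a2, Ireb2, Aco1 and Slc39a14 the highest r ran from 0.965 to 0.982. For Fth1, Tfrc, Slc11a2 and Ireb2 the 8 points hold the split between genotypes, while for Slc40a1, Slc39a14 and Aco1 the groups overlapped. For Fth1 and Slc40a1 they also hold the order of the leukocyte marker mean in Cebpg-/-. With so many genes compared over 8 arrays, such values of r are a description only.

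Other genes of iron handling were taken from the same fit with 1 probe set per gene. Their lists were drawn up by function but with earlier results of these arrays known, so the counts and p-values below are not independent evidence of a direction. Of 51 measured genes 10 rose and none fell (limma with Benjamini-Hochberg adjustment over 18193 genes), and by an unadjusted p under 0.05 21 were higher and 4 lower. Over all genes 8.62% rose and 3.99% fell. The median difference was 0.08 over the 51 and -0.0009 over all genes.

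Most of the rises were in the list of mitochondrial iron import and iron-sulfur clusters. This list also holds genes of cluster assembly in the cytosol. Of 20 measured members 6 rose and none fell, where 8.62% of all genes rose and 3.99% fell. Of the 20 differences 19 were above 0, and the share of all genes above 0 was not computed. The median of the 20 was 0.19, against -0.0009 over all genes, dim ones included. Over all probe sets with the dim ones left out the median was 0.02. Lyrm4, a subunit of the cluster assembly complex, read 5.23, 5.38, 5.40 and 5.46 in WT and 5.92, 5.71, 5.90 and 5.65 in Cebpg-/-, without overlap (0.42 ± 0.08 SE; limma, adjusted p = 0.01). Slc25a37 (mitoferrin 1), an iron importer of the inner membrane, read 6.15, 6.29, 6.12 and 6.32 in WT and 6.54, 6.47, 6.89 and 6.61 in Cebpg-/-, also without overlap (0.40 ± 0.09; adjusted p = 0.0211), while its relative Slc25a28 differed by -0.05 and did not pass.

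The other 4 that rose in this list act in the assembly or handling of clusters. Nubp2, a scaffold of cytosolic clusters, rose from 6.43 ± 0.04 to 6.78 ± 0.10 (SD, n = 4; limma, adjusted p = 0.00776), and its other probe set rose by 0.45. Ciao3, a cytosolic assembly factor, rose by 0.25 (adjusted p = 0.0192). Cisd1 (mitoNEET), an outer membrane cluster protein, rose by 0.27 (adjusted p = 0.0201), with 1 of 2 further probe sets called. Bola3, which helps to deliver mitochondrial clusters, rose by 0.25 (adjusted p = 0.03), with neither of 2 further sets called. Hscb and Glrx5 differed by 0.29 and 0.21 and did not pass (adjusted p = 0.101 and 0.0863).

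In the list of uptake and reduction 3 of 13 genes rose and none fell, where 8.62% of all genes rose and 3.99% fell. Slc39a8 (ZIP8), a metal transporter related to Slc39a14, read 3.95, 4.11, 4.15 and 3.68 in WT and 4.71, 4.52, 4.23 and 4.47 in Cebpg-/-, without overlap (0.51 ± 0.12 SE; limma, adjusted p = 0.0243). Mcoln1, a lysosomal cation channel that can release iron, rose from 5.55 ± 0.09 to 5.89 ± 0.14 (SD, n = 4; adjusted p = 0.0215). Neither of its 2 further probe sets was called (0.28 and 0.006), and the average over its sets did not pass. The further set of Slc39a8 was not called either (0.055). Lcn2, which binds iron-carrying siderophores, was called (0.30; adjusted p = 0.0269), but at 1.37 and 1.66 both groups lay at the bottom of the scale.

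Slc11a1 (NRAMP1), a metal transporter of macrophage phagosomes, read 3.51, 4.59, 4.15 and 4.28 in WT and 6.21, 4.08, 5.61 and 5.23 in Cebpg-/-. As in Slc40a1, Cebpg-/- replicate 2 sat among the WT arrays, and the difference of 1.15 ± 0.39 (SE) did not pass (limma, adjusted p = 0.0827). Its Cebpg-/- arrays stood in the order of the leukocyte marker mean and its WT arrays did not, although WT replicate 1 was lowest in both. With the leukocyte term the difference was 0.16 ± 0.16 (SE). Steap1 differed by 0.34 and did not pass (limma, adjusted p = 0.131).

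The remaining lists gave 1 call. Epas1 (HIF-2α), whose mRNA carries an iron-responsive element, read 4.05, 4.05, 4.12 and 4.00 in WT and 5.02, 4.66, 4.54 and 4.58 in Cebpg-/-, without overlap (0.65 ± 0.10 SE; limma, adjusted p = 0.00364). A dimmer probe set of Epas1 differed by 0.09 and was not called. Alas2 and Cdc14a of the same list differed by -0.16 and 0.04 and did not pass (adjusted p = 0.16 and 0.835). Of 5 genes of ferritin handling and IRP turnover none was called (1 had an unadjusted p under 0.05): Fbxl5, the ligase that marks IRP2 for decay, differed by 0.12 (adjusted p = 0.156) and Ncoa4, which delivers ferritin to lysosomes, by 0.12 (adjusted p = 0.269). None of 3 ferroxidases was called (0 at an unadjusted p under 0.05), with Heph and Hephl1 at 0.04 and -0.06. All 3 lay under the median of all values in both genotypes. None of 7 genes of the hepcidin axis was called (2 at an unadjusted p under 0.05). Of these, Hamp, Hjv, Bmp2 and Bmp6 lay under the median of all values in both genotypes. Hfe, a partner of the transferrin receptor, differed by 0.60 and Tmprss6 by -0.21 (limma, adjusted p = 0.0534 and 0.0832). Hfe averaged 2.66 in WT, near that median. Its Cebpg-/- arrays stood in the order of the leukocyte marker mean and its WT arrays did not. With the leukocyte term the Hfe difference was 0.25 ± 0.16 (SE).

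The calls outside the 8 genes were sensitive to single arrays and to the leukocyte mean, as were the calls over all probe sets. Over all probe sets 2170 were called higher with all arrays. The count was 929 without WT replicate 1, 946 without Cebpg-/- replicate 1 and 285 with the leukocyte term. Without WT replicate 1 or Cebpg-/- replicate 1 4 of the 51 genes rose, without WT replicate 3 5, without Cebpg-/- replicate 3 6 and without Cebpg-/- replicate 4 7; without WT replicate 4 9 rose and 1 fell. With the leukocyte marker mean in the fit none of the 51 was called (limma; 14 higher and 2 lower at an unadjusted p under 0.05), with Epas1 at 0.56, Slc39a8 at 0.49, Lcn2 at 0.34, Slc25a37 at 0.31, Lyrm4 at 0.29, Nubp2 at 0.28, Bola3 at 0.24, Mcoln1 at 0.23, and Cisd1 and Ciao3 at 0.20 each. All 10 called genes had larger standard errors with that term (for Epas1 0.10 without it and 0.13 with it), so a lost call alone does not show a smaller difference. Of these 10, Mcoln1, Cisd1 and Nubp2 had their Cebpg-/- arrays in the order of the leukocyte marker mean. Their WT arrays did not stand in its order. How many of all genes have that Cebpg-/- order was not counted, so nothing is read from these matches. The fibroblast marker mean was 9.49 to 9.82 in WT and 9.30 to 9.60 in Cebpg-/-. Of its 10 members 4 were called lower, against 3.99% of all genes. The part of the fibroblast mean in these results was not tested.

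**Figure D4:**
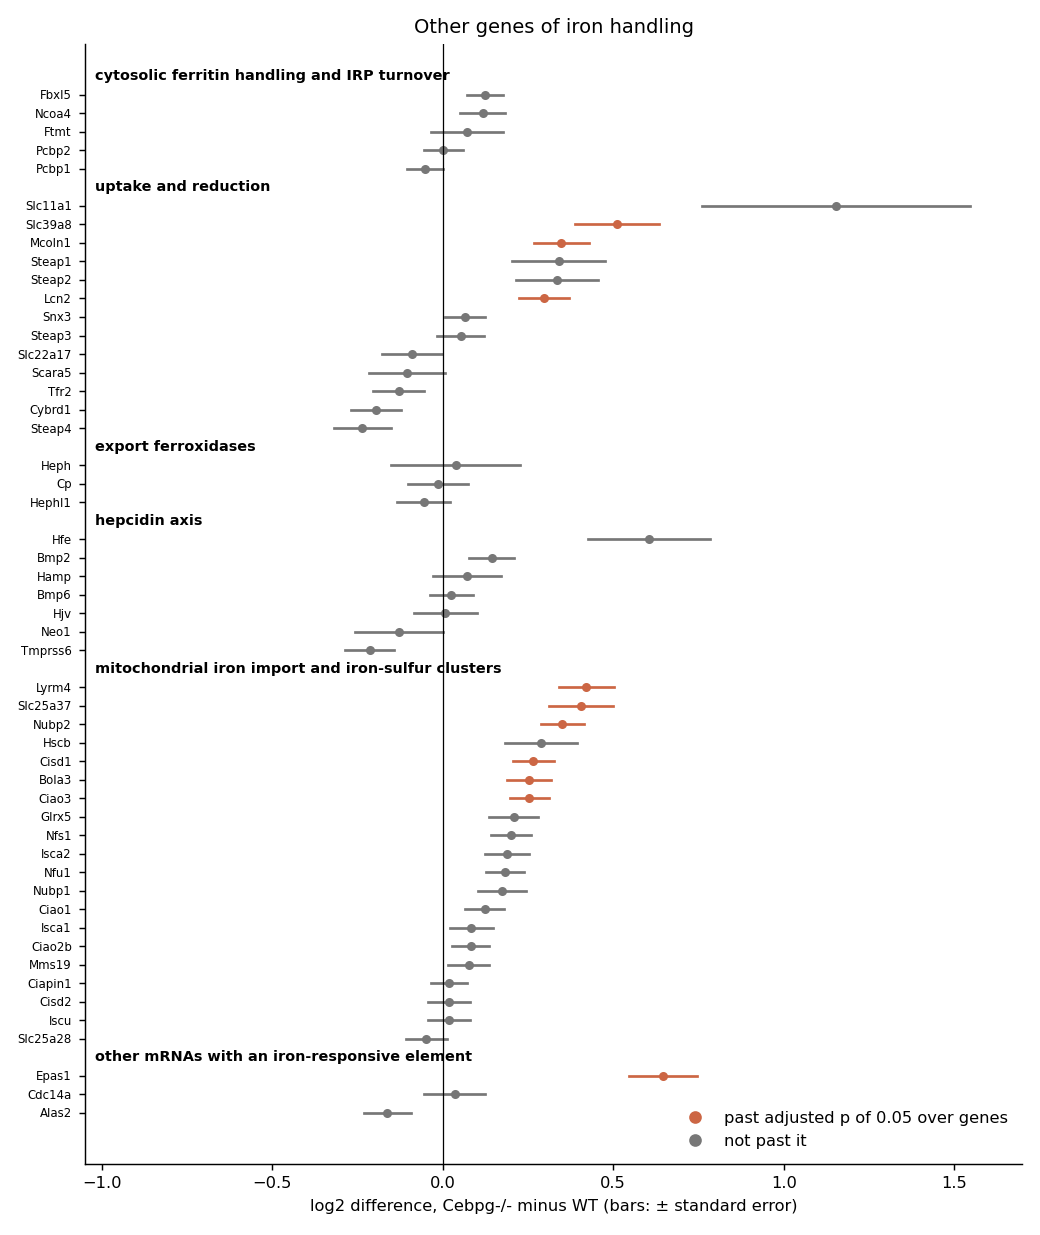
Log2 difference, Cebpg-/- minus WT (horizontal axis), ± standard error, of the 51 measured genes of iron handling other than the 8, grouped by function. The 10 orange genes passed an adjusted p of 0.05 over all genes, and all of them lie to the right of 0. Of these, 6 are in the list of mitochondrial iron import and iron-sulfur clusters, where 19 of 20 differences are above 0. The share of all genes above 0 was not computed.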

How the data were processed

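Total RNA of 8 MEF cultures was labelled with biotin, per the labels' protocols, and hybridised to 1 array each. Per the submitters' processing notes the authors used RMA, which gave the deposited log2 value of each probe set. No source used here gives its version or settings. RMA usually equalises overall brightness between arrays and compresses differences of dim probe sets. Medians of the 8 arrays were 2.70 to 2.76, and the number of arrays limits the precision.

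Probe sets were named through the platform annotation (34945 name 1 gene), with symbols updated through RefSeq. limma 3.58.1 in R 4.3.3 (lmFit, eBayes, genotype as the only term) was fitted over 45037 probe sets, with Benjamini-Hochberg adjustment over probe sets for the 8 genes and over 18193 genes, each by its brightest probe set, for the 51 others. Of 55 listed genes, 4 were not analysed here, nor was protein sequence identity between the members. Named were every probe set of the 8 genes, every called gene of the lists and up to 2 others per list with the largest differences; Slc25a28 was added after its value was seen. The 8 genes and the lists were chosen with earlier results of these data known. The fit was tested on simulated data. Alternatives were other normalizations, a filter on dim probe sets, other variance models, array weights, a replicate block, the leukocyte mean, averaging over the probe sets that share a gene, other thresholds and leaving out arrays.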

Additional observations from a re-analysis of the deposited data

Results flagged for a closer look

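Among 152 groups of 4 arrays examined, 9 held 1 array whose gap to the nearest other, divided by the group's range, was above Dixon's 95% critical value, which chance gives in about 1 of 20 groups. WT replicate 1 had a leukocyte marker mean of 3.41 where the other WT arrays had 4.93 to 5.08. In the Tfrc set 1422967_a_at, WT replicate 4 read 2.54 and the others 2.08 to 2.14, all at the dim end. In the Aco1 set 1423644_at, WT replicate 1 read 6.69 and the others 6.75 to 6.76, a small gap in absolute terms. In the lists, the arrays apart were WT replicate 4 for Hscb (4.60), 1 WT array for Slc25a28 (5.94) and 1 Cebpg-/- array each for Slc22a17 (5.27), Ftmt (1.93), Hephl1 (2.15) and Scara5 (2.28). Without WT replicate 1 both Fth1 sets and the Tfrc set still passed (limma) while Slc40a1 did not.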

How the results depend on the processing

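Of 16 other fits, both Fth1 probe sets passed in all 16, the brightest Tfrc set in 14 and the brightest Slc40a1 set in 5, and no member or list gene reversed after being called. Counts are given as higher and lower in Cebpg-/-, for the 19 probe sets of the 8 genes (4 and 0 as reported), the 51 other iron genes (10 and 0) and all probe sets (2170 and 1254). With the leukocyte marker mean in the fit they were 2 and 0, 0 and 0, and 285 and 184. With both replicates 1 left out, a choice made after seeing the data, they were 2 and 0, 1 and 0, and 315 and 212. At a threshold of 0.1 they were 5 and 1, 17 and 2, and 3505 and 2290, and with a change of at least 2-fold also required 1 and 0, 0 and 0, and 172 and 82. The lower count was 1 of 19 with the variance modelled on intensity and, with array weights, 1 of 19 and 1 of 51. Leaving out 1 array at a time gave 3 to 5 higher and 0 to 1 lower of the 19, 4 to 11 higher and 0 to 1 lower of the 51, and 929 to 2511 higher and 531 to 1851 lower of all, the lowest for all probe sets being without WT replicate 1 (higher) and Cebpg-/- replicate 1 (lower). With averages over probe sets, neither Tfrc (0.27) nor Slc40a1 (1.41) passed. The array number, 4 per genotype, and the compression of dim probe sets limit what can be seen.

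Deviations from the group means of same-numbered arrays correlated at -0.27, 0.13, -0.01 and 0.03. Those of differently numbered arrays correlated at -0.25 to 0.33. With 4 arrays per genotype, these values cannot tell whether the replicate numbers pair the samples. With the replicate block, 3 and 0 of the 19, 4 and 0 of the 51, and 1203 and 708 of all probe sets passed, and of the 8 genes the brightest Slc40a1 set no longer did (1.71).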
